A study of Mus musculus with 24 samples.

Results

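The genes described here are the members of 7 solute carrier (Slc) families that hold most of the plasma membrane and lysosomal amino acid transporters of the mouse, together with carriers of related small molecules. They were taken by gene symbol from the day 1 to 4 count files, which gave 59 of the 30590 listed genes, and the same 59 genes were found by Ensembl identifier in the endpoint files. The Slc1 family contributed 7 members, Slc3 2, Slc6 18, Slc7 14, Slc36 4, Slc38 11 and Slc43 3. The rule reads gene symbols alone.

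RNA was sequenced from AGO2 knockout (KO) and wild-type (WT) E14 mouse embryonic stem cells (mESCs) of 129/Ola background, which were driven towards extraembryonic endoderm (XEN), the lineage that lines the yolk sac. The cells of both genotypes were plated on gelatin and given activin A at 10 ng/mL, retinoic acid at 0.1 µM and 15% serum, under a protocol of 5 days, and were sampled as 2 KO and 2 WT libraries on each of days 1, 2, 3 and 4. Endpoint libraries, re-used from earlier studies per the labels, were 2 KO diff_XEN cultures, 2 WT diff_XEN cultures and 2 WT mESC cultures. For diff_XEN of both genotypes the labels give the same activin A, retinoic acid, serum and 5-day protocol. The mESCs, at passages 33 and 42, were kept in 15% serum with LIF. The column names of the KO diff_XEN libraries name clones C4 and 5-3, 1 library each, and for the course the clone is not given in the sources used here.

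Amino acids do not cross membranes unaided, so a cell's supply is set by carriers of overlapping specificity. Slc7 light chains such as Slc7a5 exchange large neutral, cationic or acidic amino acids and most of them reach the surface only when disulfide-linked to the heavy chain Slc3a2 (CD98hc) or, for Slc7a9, Slc3a1. Sodium-coupled carriers of the Slc1, Slc6 and Slc38 families accumulate glutamate, glutamine, alanine, glycine, taurine and others, and Slc36 carriers and Slc38a9 work at the lysosome, where amino acid levels feed into mTORC1, the kinase complex that controls growth. The endoderm of the yolk sac is an absorptive and transporting epithelium, and mESCs depend on amino acid uptake for their growth.

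Total counts were 10601574 to 27147835 per course library and 13941826 to 40139219 per endpoint library. Levels below are CPM (counts scaled to library size), or RPKM (CPM per kilobase of exon) where genes are compared with each other. Ago2, which encodes the Argonaute protein that binds small RNAs, was lower in the KO than in the WT libraries of each day, at 33.8 to 148 CPM in the 8 KO course libraries and 186 to 581 CPM in the 8 WT course libraries, with a log2 fold change over the 4 days of -2.11 ± 0.15 (SE, adjusted p = 6.36e-07, edgeR). In diff_XEN, clone C4 held 115 CPM and clone 5-3 held 9.35 CPM of Ago2, against 389 and 427 CPM in WT. That difference was not called (-2.72 ± 1.04, adjusted p = 0.0808), and was called without C4 (-5.37) or without 5-3 (-1.82). The labels do not give the deleted part, so a whole-gene count does not check the deletion. Of 15 primitive endoderm and XEN markers none was at 0 in any group, and their summed level was 567 to 660 CPM in KO and 888 to 992 CPM in WT at day 1, 3913 to 5161 CPM in KO and 12169 to 13555 CPM in WT at day 4, and 9019 to 10408 CPM in KO and 49548 to 80563 CPM in WT diff_XEN. The day 3 libraries stood apart within their groups: WT replicate 1 and KO replicate 2 resembled a day 4 library of their own genotype more than their own replicate. The labels do not say whether replicates came from different cultures, and p-values here therefore reflect a spread between libraries that may be technical.

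The transporters spanned the whole range of expression. By the highest group mean over days 1 to 4, 11 members exceeded 100 CPM, 18 lay between 10 and 100 CPM, 18 between 1 and 10 CPM, and 12 stayed below 1 CPM. Per length, Slc38a4, a sodium-coupled neutral amino acid transporter of the system A type (chr15:96994820-97055956, minus strand, mm10), led all members with a mean of 242 RPKM over the 8 course groups. It was followed by the heavy chain Slc3a2 at 60.4 RPKM, the system A transporter Slc38a2 at 41.0 RPKM, the leucine and tryptophan exchanger Slc7a5 (LAT1) at 40.8 RPKM, the cationic and neutral exchanger Slc7a7 (y+LAT1) at 30.9 RPKM and the glutamine carrier Slc1a5 (ASCT2) at 29.2 RPKM. The taurine transporter Slc6a6 had 22.4 RPKM and the Slc7a7 relative Slc7a6 (y+LAT2) 20.6 RPKM. The members below 1 CPM were mostly neuronal or epithelial carriers, among them the noradrenaline, dopamine and glycine transporters Slc6a2, Slc6a3 and Slc6a5. Of the 59 members, 50 passed the expression filter of the course and were tested, and 9 were not (Slc6a2, Slc6a5, Slc6a12, Slc6a14, Slc6a18, Slc7a13, Slc7a14, Slc36a3 and Slc38a11).

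**Figure D1:**
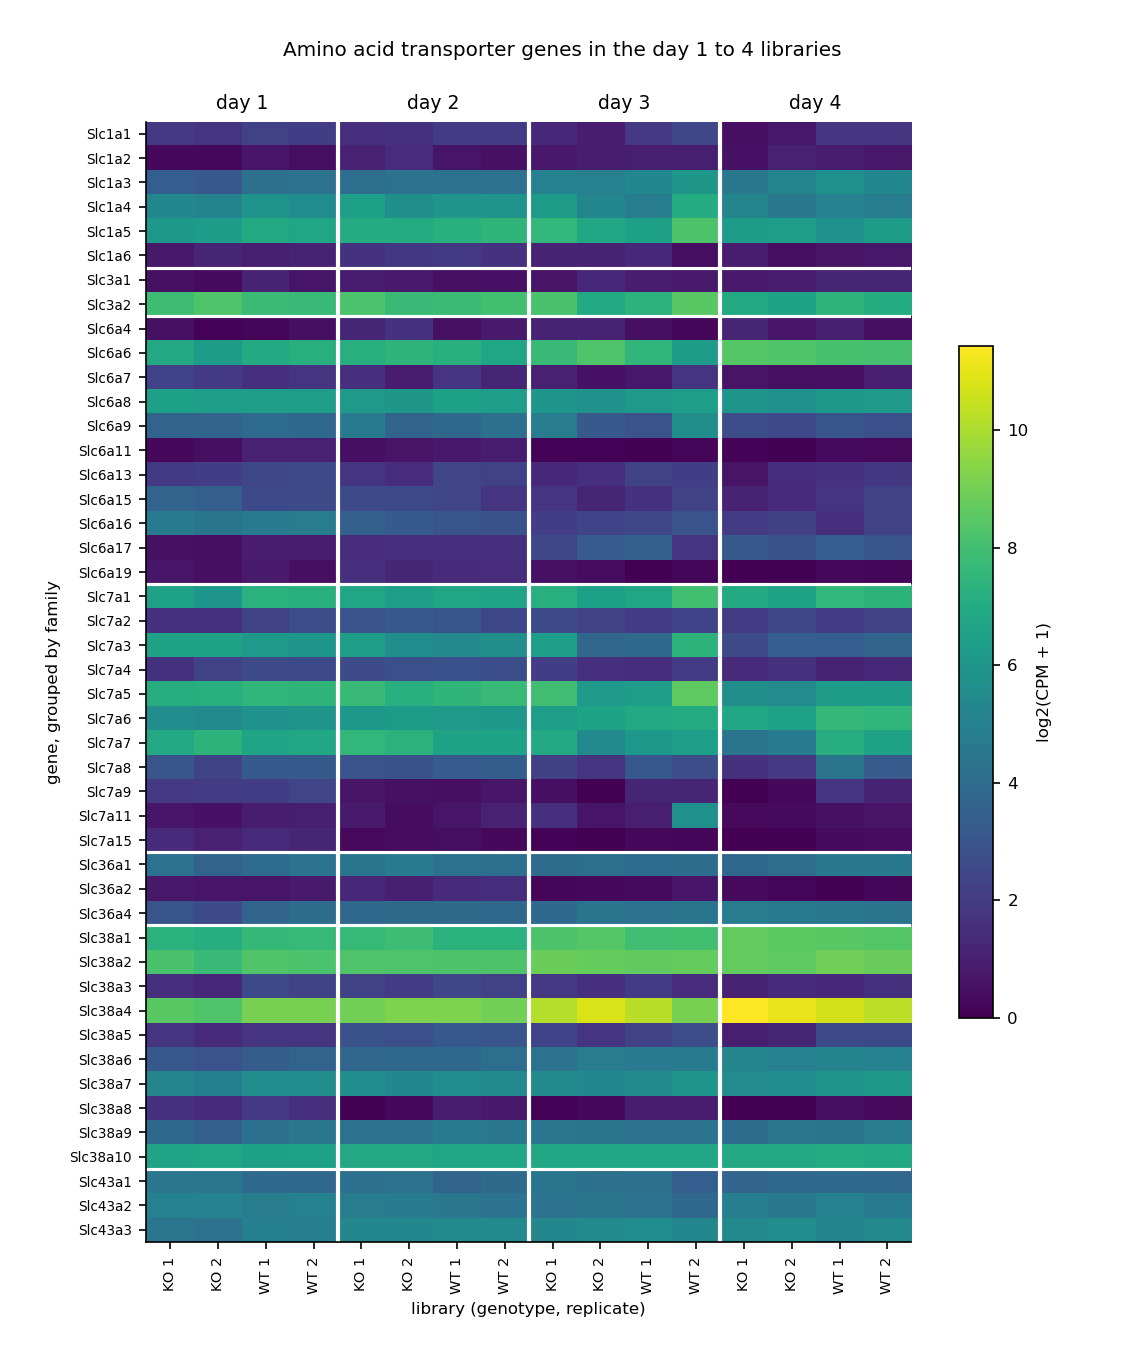
Heat map of log2(CPM + 1) for reported members with a group mean of at least 1 CPM on some day (rows, by family) in the 16 course libraries (columns, by day, with KO left of WT and the replicate number after the genotype). Slc38a4 brightens by day 4 in both genotypes, and at day 3 replicate 2 of WT shows a Slc7a11 band that its partner lacks (52.1 against 0.92 CPM).

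Seen as families, the Slc38 carriers took up a larger part of the transporter message at day 4 than at day 1, and the Slc7 carriers a smaller one. At day 1 Slc38 genes made up 35.8% and 30.3% of the members' summed RPKM in KO and 40.2% and 40.5% in WT, and at day 4 they made up 79.1% and 76.6% in KO and 64.6% and 61.7% in WT. The Slc7 share was 27.9% and 30.4% in KO and 25.5% and 26.0% in WT at day 1, and 6.06% and 6.65% in KO and 16.5% and 16.7% in WT at day 4. At day 4 the genotypes did not overlap in either share. The summed Slc7 RPKM itself was 131 and 130 at day 1 and 130 and 111 at day 4 in WT. In KO it was 121 and 132 at day 1 and 58.0 and 52.6 at day 4. The Slc38 sum was 206 and 202 RPKM at day 1 and 509 and 408 RPKM at day 4 in WT. In KO the Slc38 sum was 155 and 131 RPKM at day 1 and 758 and 606 RPKM at day 4. The days between did not follow 1 trend: at day 2 the Slc38 share was 35.4% and 42.95% in KO and 42.2% and 38.5% in WT, and at day 3 it was 50.1% and 70.4% in KO and 62.8% and 31.4% in WT. In WT day 3 replicate 2 the Slc38 share thus lay below both WT day 1 libraries, and its Slc7 share of 31.3% lay above both. One gene carried most of the Slc38 part: Slc38a4 alone was 68.0% and 63.6% of the summed RPKM in KO and 49.3% and 44.4% in WT at day 4. The diff_XEN cultures differed most in this makeup, with a Slc38 share of 71.8% (C4) and 64.9% (5-3) in KO and of 23.2% and 23.6% in WT. Their Slc7 share was 8.47% and 11.4% in KO and 42.1% and 40.4% in WT. WT mESCs held 36.1% and 30.0% Slc38 and 33.5% and 38.5% Slc7 transcripts. Shares within a library are bound to each other, so a higher share of one family lowers the others, and no test was made on them.

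**Figure D2:**
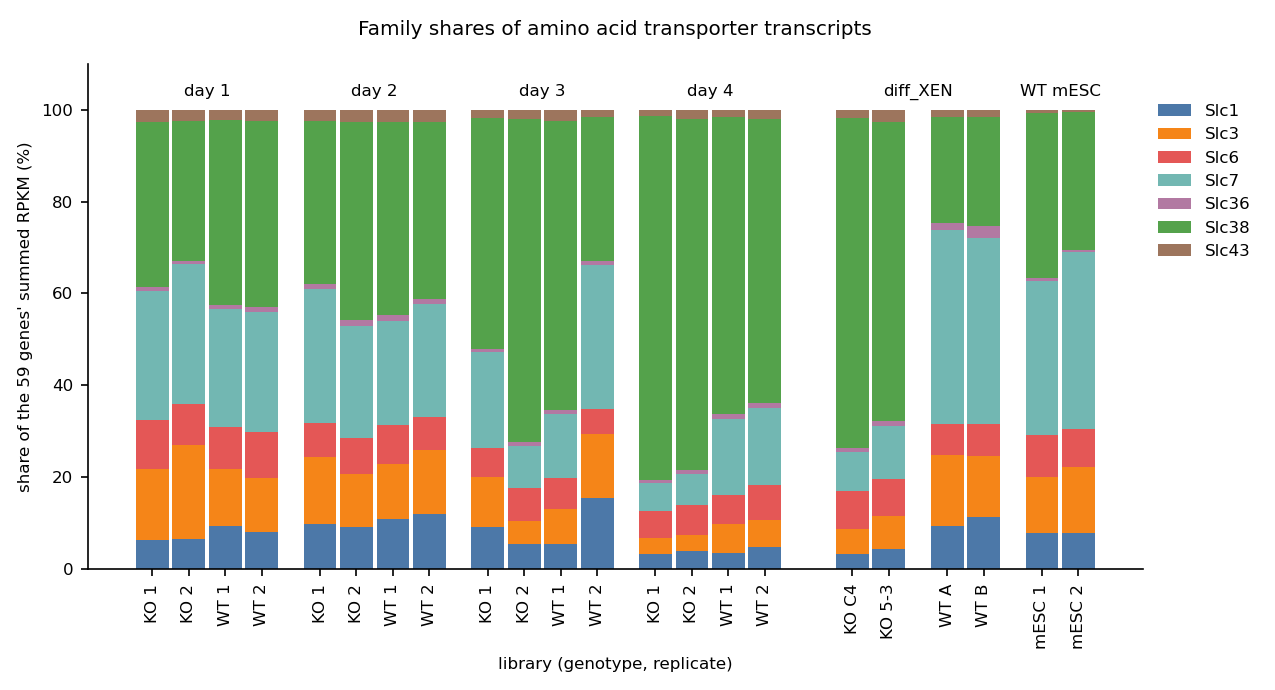
Stacked bars of each family's share (%) of the summed RPKM of the 59 members in the 22 libraries used, with KO left of WT within a day. The Slc38 part fills 79.1% and 76.6% of the day 4 KO bars and 23.2% and 23.6% of the WT diff_XEN bars; course and endpoint libraries were analysed separately.

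The light chains that pair with Slc3a2 changed places along the course. Summed over its 6 light chain partners (Slc7a5, Slc7a6, Slc7a7, Slc7a8, Slc7a10 and Slc7a11), the ratio of partner RPKM to Slc3a2 RPKM was 1.12 to 1.75 in every library of days 1 to 3. At day 4 it was 1.31 and 1.49 in KO and 2.21 and 2.4 in WT. At days 1 and 2 the most abundant partner was Slc7a5 or Slc7a7 in all 8 libraries. At day 4 it was Slc7a6 in KO, with 55.6% and 49.2% of the partner sum, and in WT Slc7a6 and Slc7a7 lay close, at 38.6% each in replicate 1 and at 44.0% and 30.9% in replicate 2. In diff_XEN Slc7a6 led in KO (57.2% and 42.5%) and Slc7a5 led in WT (50.4% and 54.9%). In WT mESCs Slc7a5 made up 69.6% and 63.9%.

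Between day 1 and day 4 of the WT course, 11 of the 50 tested members rose and 12 fell, 46.0% in all, where 48.5% of all genes tested were called at an adjusted p below 0.05, 26.9% higher and 21.6% lower. The median log2 fold change of the members was -0.48, against 0.01 over all genes. The Slc38 family stood on the rising side, with 6 members called higher and 2 lower of 10. By number of calls the Slc6 family stood on the falling side, with 2 higher and 5 lower of 13. The lower ones included low genes, Slc6a3 (0.56 and 0.38 CPM at day 1), Slc6a7 (1.92 and 2.27 CPM) and Slc6a11 (1.04 and 1.09 CPM). The summed Slc6 RPKM of WT was 47.6 and 49.5 at day 1 and 49.9 and 50.8 at day 4. Each fold change that follows is a log2 value with its SE and an edgeR quasi-likelihood p adjusted over all genes.

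Among the system A and related Slc38 carriers, Slc38a4 had 1655 and 1252 CPM at day 4, against 548 and 538 CPM at day 1 of the WT course, a change of 1.42 ± 0.31 (adjusted p = 0.00204). Slc38a6, a carrier whose transport role is less settled, had 34.1 and 31.2 CPM at day 4, against 9.41 and 11.7 CPM at day 1, a change of 1.63 ± 0.22 (adjusted p = 3.86e-05). Slc38a2, the system A gene that cells induce when amino acids are short, stood at 491 and 454 CPM at day 4, against 318 and 296 CPM at day 1, a change of 0.62 ± 0.14 (adjusted p = 0.0024). Slc38a1 and Slc38a10 rose as well, and Slc38a5, a glutamine carrier of the system N type, rose by 1.14 ± 0.31 from a low level (5.03 and 5.01 CPM at day 4, against 2.28 and 2.27 CPM at day 1; adjusted p = 0.00732). The days did not overlap for any of these genes.

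Of the heteromeric exchangers, Slc7a6 rose in WT to 193 and 184 CPM at day 4, against 57.4 and 61.3 CPM at day 1, by 1.67 ± 0.15 (adjusted p = 1.22e-06). Slc7a5 held 77.1 and 78.4 CPM at day 4, against 184 and 175 CPM at day 1, and Slc3a2 held 175 and 135 CPM at day 4, against 222 and 206 CPM at day 1. Although neither overlapped between days, neither passed the test, with changes of -1.21 ± 0.61 (adjusted p = 0.124) and -0.47 ± 0.38 (adjusted p = 0.327). The spread used in that test is shared with the day 3 libraries. In a fit of the 4 compared libraries alone both passed, at -1.25 (adjusted p = 2.93e-05) for Slc7a5 and -0.51 (adjusted p = 0.0131) for Slc3a2. The cationic amino acid transporter Slc7a3 had 9.70 and 12.4 CPM at day 4, against 72.8 and 63.4 CPM at day 1 (-2.62 ± 0.97, adjusted p = 0.0423). This call was lost on leaving out either replicate of either day, with changes between -2.47 and -2.86. It was also lost with a replicate block, and it was kept in the fit of the 4 compared libraries alone. Slc7a4, an Slc7 member of unsettled function whose exons overlap P2rx6 on the other strand, was lower at day 4 (-1.95 ± 0.37, adjusted p = 6.76e-04).

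The Slc6 family contains carriers for transmitters and osmolytes. Among them, the orphan carrier Slc6a16 changed in WT by -3.16 ± 0.29 (adjusted p = 1.76e-06). In the other direction, Slc6a17, a vesicular neutral amino acid transporter known from neurons, had 9.61 and 6.80 CPM at day 4, against 0.88 and 0.84 CPM at day 1 (3.24 ± 0.56, adjusted p = 3.35e-04), and Slc6a6 rose by 0.997 ± 0.32 (adjusted p = 0.021). The glutamate transporter Slc1a3 (GLAST) rose by 1.36 ± 0.25 (adjusted p = 4.34e-04), with 52.8 and 40.1 CPM at day 4, against 17.9 and 18.3 CPM at day 1.

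In the KO course 15 members rose and 18 fell between day 1 and day 4, or 66.0% of those tested, beside 66.3% of all genes, 33.3% higher and 32.9% lower. The largest rises among members of at least 5 CPM were Slc6a17 (4.14 ± 0.62, adjusted p = 5.2e-05) and Slc38a4, which had 2774 and 2144 CPM at day 4, against 368 and 307 CPM at day 1 (2.87 ± 0.33, adjusted p = 6.64e-06). Slc38a6 rose by 2.19 ± 0.22 (adjusted p = 1.97e-06), Slc6a6 by 1.77 ± 0.33 (adjusted p = 3.99e-04), Slc1a3 by 1.70 ± 0.25 (adjusted p = 4.52e-05) and Slc38a2 by 0.70 ± 0.14 (adjusted p = 6.14e-04). Slc36a4, a proton-independent relative of the lysosomal amino acid carrier Slc36a1, had 27.4 and 25.3 CPM at day 4, against 6.84 and 4.93 CPM at day 1 (2.16 ± 0.22, adjusted p = 2.27e-06).

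The KO decreases included the exchanger system. Slc7a7 had 19.97 and 26.0 CPM at day 4, against 120 and 166 CPM at day 1 in KO (-2.63 ± 0.38, adjusted p = 6.62e-05). Slc7a5 had 49.4 and 44.5 CPM at day 4, against 140 and 142 CPM at day 1 (-1.59 ± 0.62, adjusted p = 0.0401), and Slc3a2 had 121 and 96.2 CPM at day 4, against 237 and 311 CPM at day 1 (-1.34 ± 0.38, adjusted p = 0.0084). For all of these genes the days did not overlap. The Slc7a5 call was lost on leaving out any one of the 4 libraries (-1.57 to -1.71), and the Slc3a2 call without day 1 replicate 2 (-1.13) or day 4 replicate 2 (-1.24). Slc7a3 fell by 3.66 ± 1.01 on the log2 scale (adjusted p = 0.00732) and its call was lost without day 4 replicate 1 (-3.33). Slc6a15, a carrier of branched-chain amino acids and proline, fell by 2.98 ± 0.40 (adjusted p = 1.85e-05) and Slc6a16 by 2.77 ± 0.28 (adjusted p = 1.81e-06), both on the log2 scale.

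By mean level, 31 of the 50 tested members reached their highest day together in both genotypes. For 11 of these it was day 1, among them Slc6a15 and Slc6a16, and for 9 it was day 4, among them Slc38a1, Slc38a4, Slc38a6, Slc6a6, Slc7a6 and Slc36a4. Another 7 were highest at day 2 and 4 at day 3. The day 3 group was Slc1a3, Slc1a5, Slc7a1 and Slc7a11. Its WT means join unlike replicates, at 89.0 and 303 CPM for Slc1a5, 109 and 248 CPM for Slc7a1, and 0.92 and 52.1 CPM for Slc7a11. Slc1a3 had 39.4 and 64.5 CPM there. The same shares over all genes were not worked out, so these counts describe the members only.

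At day 3 the replicates of both genotypes parted in a set of amino acid importers. Slc7a11 (xCT), the cystine and glutamate exchanger that feeds glutathione synthesis, had 1.95 and 0.58 CPM in KO replicates 1 and 2 and 0.92 and 52.1 CPM in WT replicates 1 and 2. On the other days it stayed between 0.23 and 1.06 CPM in all 12 libraries. Of the 29 members at 5 CPM or more in either WT day 3 library, 11 differed at least 2-fold between the replicates. Of all genes at that level 8.44% did so, 2.9% being higher in replicate 2 and 5.55% in replicate 1, a share above the 0.378% to 4.15% of the other 7 course groups. Replicate 2 was the higher library for 8 of them, namely Slc7a11 (56.4-fold), Slc7a3 (11.99-fold), Slc6a9 (7.61-fold), Slc1a4 (4.80-fold), Slc7a5 (4.79-fold), Slc1a5 (3.40-fold), Slc7a1 (2.27-fold) and Slc3a2 (2.23-fold). Slc6a9 takes up glycine, Slc1a4 (ASCT1) serine and other small neutral amino acids, and Slc7a1 (CAT1) arginine and lysine. Slc6a6, Slc6a17 and Slc38a4 were higher in WT replicate 1.

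In KO day 3, 6 of 26 members differed at least 2-fold, beside 4.15% of all genes, and all 6 were higher in replicate 1. Among them were Slc7a3 (80.4 and 12.6 CPM), Slc7a5 (242 and 70.1 CPM) and Slc3a2 (285 and 128 CPM). The others were Slc1a4 (75.3 and 37.4 CPM), Slc6a9 (26.8 and 8.04 CPM) and Slc7a7 (117 and 42.9 CPM). Slc7a7 did not differ 2-fold in WT day 3 (68.4 and 82.4 CPM). In the remaining 6 groups of the course, 0 or 1 member differed at least 2-fold. A list of 24 genes of the amino acid stress response, the ATF4 programme that includes Asns, Trib3 and Chac1, moved with the genes that differed in both genotypes. Its summed level was 3086 and 1391 CPM in KO day 3 replicates 1 and 2 and 1623 and 5088 CPM in WT day 3 replicates 1 and 2. Within WT day 3, 16 of 23 list genes at 5 CPM or more were at least 2-fold higher in replicate 2, and within KO day 3, 13 of 22 were at least 2-fold higher in replicate 1. Asns, which makes asparagine, had 475 and 121 CPM in KO replicates 1 and 2 and 188 and 804 CPM in WT replicates 1 and 2. Summed pluripotency markers (12 genes) were 2325 and 947 CPM in KO and 1346 and 2483 CPM in WT, in the same order of libraries. The part of the stress list and of the markers in the day 3 values was not tested.

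ATF4 acts through composite sites of a C/EBP and an ATF element, so promoters were searched on both strands for the 8 letters TGATGNAA, from 250 bases before to 50 bases after the start. This was found in 3 of the 42 members with a RefSeq promoter entry (7.14%), against 1219 of 27025 genes (4.51%), and 17 members had no entry. A stretch is shown for each of these 3 genes. Slc7a11 and Slc1a4 differed between the day 3 replicates, as did Slc7a7 in KO, and Slc7a7 recurs below. Sequences are from RefSeq (GRCm38.p6), 5′ to 3′ on the gene's strand, and capitals mark the matched letters or their reverse complement. The Slc7a11 stretch lies at chr3:50443629-50443698, that of Slc1a4 at chr11:20332699-20332758 and that of Slc7a7 at chr14:54417925-54417969, all on the minus strand.
Slc7a11: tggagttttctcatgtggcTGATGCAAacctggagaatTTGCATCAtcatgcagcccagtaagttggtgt
Slc1a4: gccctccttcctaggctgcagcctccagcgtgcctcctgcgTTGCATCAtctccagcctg
Slc7a7: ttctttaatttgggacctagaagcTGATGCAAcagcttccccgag
The Slc7a11 window held a match on each strand, at -66 to -59 and at -47 to -40 from the start. The Slc7a7 window held a further match at -141 to -134, outside the printed stretch. Counted from the start of another Slc7a7 promoter entry, the printed match lies at -243 to -236. Slc7a3, Slc7a5, Slc3a2 and Slc1a5 had no match of these letters in their windows or no entry, and a match is a description of sequence, not of binding.

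**Figure D3:**
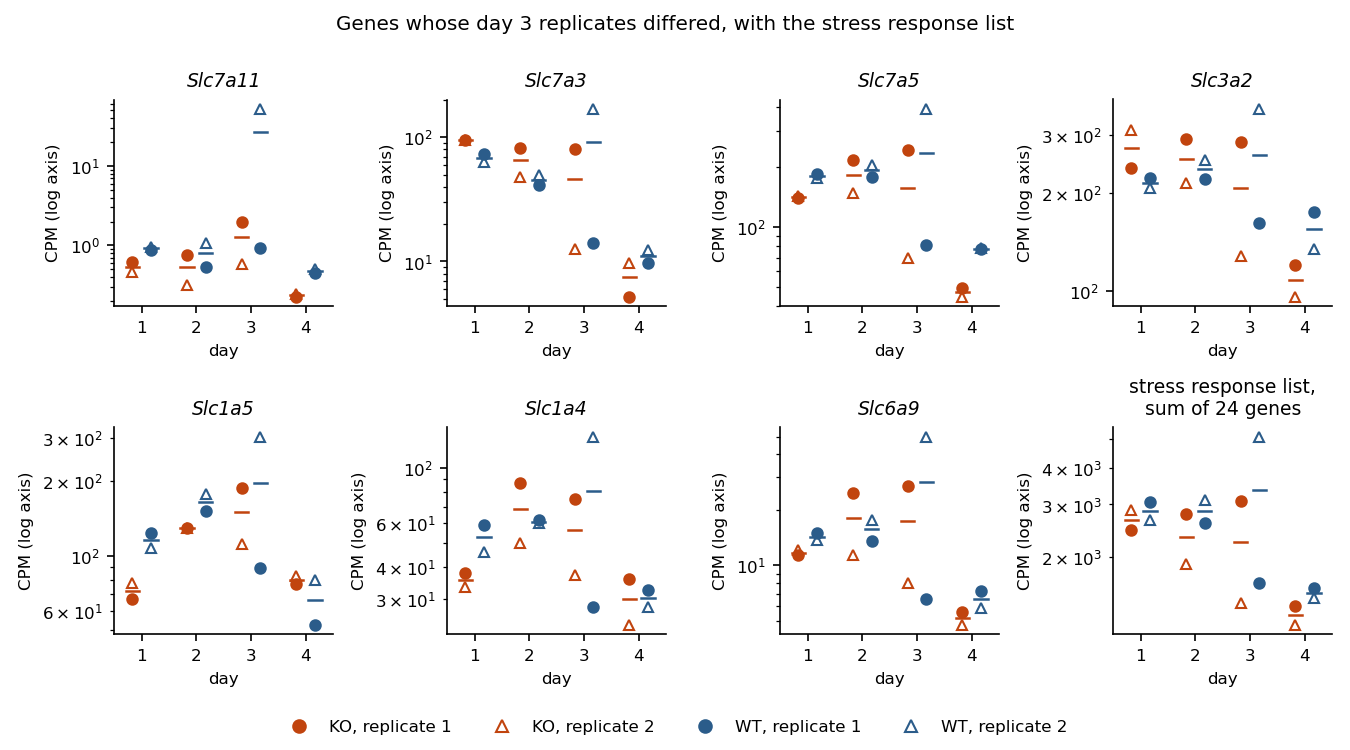
CPM on a log axis by day for 7 importers and for the summed stress response list, with KO points left of WT, replicate 1 filled and replicate 2 open, and a bar at the mean. WT replicate 2 is the highest day 3 point in every panel, at 52.1 CPM for Slc7a11 and 5088 CPM for the list, and KO replicate 1 lies above KO replicate 2.

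KO and WT were compared on each day and over the mean of days 1 to 4. In bulk RNA, fewer cells of a type and less RNA per cell cannot be told apart. At day 1, 0 of 50 tested members were higher and 9 were lower in KO (18%), where 13.6% of all genes were called, 6.89% higher and 6.71% lower; with DESeq2 size factors 2 were higher and 8 lower. Slc36a4 had 6.84 and 4.93 CPM in KO and 11.8 and 15.7 CPM in WT (-1.22 ± 0.22, adjusted p = 0.00855), and Slc1a3 had 9.82 and 8.20 CPM in KO and 17.9 and 18.3 CPM in WT (-1.005 ± 0.25, adjusted p = 0.0255). Smaller decreases were called for Slc38a9, the lysosomal arginine sensor (-0.71 ± 0.21, adjusted p = 0.0399), Slc43a3 (-0.55 ± 0.16, adjusted p = 0.0403) and Slc38a7 (-0.55 ± 0.17, adjusted p = 0.0439). The other 4 called members, Slc6a3, Slc6a11, Slc7a2 and Slc38a3, had means below 5 CPM in both groups. No day 1 member call remained without KO replicate 2 or without WT replicate 2, where Slc36a4 stood at -0.99 and -0.96. Fewer members were also called without WT replicate 1. Calls over all genes fell in each of these fits too.

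At day 2 a single member was called lower in KO, Slc38a8 (-2.56 ± 0.60, adjusted p = 0.0464), a low gene of 0.04 and 0.20 CPM in KO and 0.81 and 0.69 CPM in WT; it made up 2.0% of the members tested, and over all genes 0.774% were called higher, 0.853% lower and 1.63% either way. At day 3, 2 members were called lower and none higher (4.0%, against 4.83% of all genes, 1.83% higher and 3.0% lower): Slc38a8 (-2.82 ± 0.69, adjusted p = 0.0305) and the glutamate transporter Slc1a1 (-1.53 ± 0.35, adjusted p = 0.0234), whose exons overlap a gene on the other strand. Slc7a11 at day 3 had the widest spread of the panel and did not pass, at -4.24 ± 1.17 (adjusted p = 0.0642); without WT replicate 2 its value was 0.63, with the sign turned, and without WT replicate 1 it was -5.18 (adjusted p = 1.69e-05). Slc7a3, Slc7a5, Slc3a2 and Slc1a5 turned sign in the same way without WT day 3 replicate 2, to 1.78, 0.98, 0.39 and 0.78.

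At day 4 the genotypes differed in a group of exchangers. Of 50 members 6 were lower and 0 higher in KO (12%), where 7.04% of all genes were called, 1.99% higher and 5.05% lower. Slc7 contributed 4 of its 12 tested members. Slc7a7, which exports cationic amino acids for neutral ones together with Slc3a2 (chr14:54369442-54417780, minus strand, with 232 exon bases shared with Oxa1l on the other strand), had 19.97 and 26.0 CPM in KO and 140 and 93.9 CPM in WT (-2.34 ± 0.38, adjusted p = 0.00216). Slc7a8 (LAT2), an exchanger of neutral amino acids typical of absorptive epithelia and located on the same chromosome (chr14:54722209-54781946), had 2.10 and 2.78 CPM in KO and 20.3 and 8.73 CPM in WT (-2.55 ± 0.39, adjusted p = 9.39e-04). Slc7a6 had 114 and 91.5 CPM in KO and 193 and 184 CPM in WT (-0.88 ± 0.14, adjusted p = 0.00144). These groups did not overlap for any of the genes.

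Slc7a9, the light chain that forms the cystine and dibasic amino acid carrier with Slc3a1, was nearly absent in KO at day 4, with 3 counts over both libraries (0 and 0.19 CPM), against 45 counts in WT (2.51 and 1.22 CPM). The ratio of WT to KO was 17.6, with a 95% counting interval of 5.65 to 88.6, and the gene was called lower (adjusted p = 0.00621). Its heavy chain Slc3a1 stood at 0.75 and 0.80 CPM in KO and 1.26 and 1.29 CPM in WT and was not called. Slc38a5 had 0.98 and 1.30 CPM in KO and 5.03 and 5.01 CPM in WT (-2.12 ± 0.35, adjusted p = 0.00139), and Slc1a1 had 0.38 and 0.68 CPM in KO and 2.51 and 2.51 CPM in WT (-2.21 ± 0.41, adjusted p = 0.00423). Slc7a6, Slc7a8 and Slc38a5 kept their calls under every alternative run, and Slc7a7 lost its call without KO replicate 1 (-2.14). Fewer members, and fewer of all genes, were called in that fit. Slc3a2 (121 and 96.2 CPM in KO, 175 and 135 CPM in WT) and Slc7a5 (49.4 and 44.5 CPM in KO, 77.1 and 78.4 CPM in WT) did not overlap between genotypes and were not called (adjusted p = 0.504 and 0.566); in a fit of the 4 compared libraries alone Slc7a5 was called (-0.75, adjusted p = 0.0271). Slc38a4 lay higher in KO at day 4 (2774 and 2144 CPM) than in WT (1655 and 1252 CPM), and it was not called.

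The visceral endoderm markers (13 genes, none at 0 in both libraries of either group) moved with these genes at day 4. They summed to 352 to 460 CPM in KO and 4573 to 5029 CPM in WT. Of the 13, 11 were called lower in KO and 0 higher, where 5.05% of all genes were lower and 1.99% higher. Apoa1, Hnf4a, Amn, Trf and Ihh were below 1 CPM in both KO libraries, against Trf alone in WT. Parietal endoderm markers (12 genes) summed to 5611 to 8677 CPM in KO and 4708 to 6808 CPM in WT, with 1 called lower. The part of cell makeup in the transporter differences was not tested.

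Over the mean of the 4 days, 1 member was higher and 11 lower in KO (24%), where 17.5% of all genes were called, 7.52% higher and 10.0% lower. Slc43a1, a facilitator of large neutral amino acids, was the one that rose, by 0.39 ± 0.11 (adjusted p = 0.0271). Slc7a8 fell by 1.19 ± 0.19 on the log2 scale (adjusted p = 5.39e-04), Slc1a3 by 0.62 ± 0.12 (adjusted p = 0.00288), Slc7a6 by 0.42 ± 0.07 (adjusted p = 0.00104) and Slc38a7 by 0.35 ± 0.08 (adjusted p = 0.00972), and these 4 were called under all 21 alternatives. Slc7a1 (-0.60 ± 0.16, adjusted p = 0.0238) and the creatine transporter Slc6a8 (-0.24 ± 0.07, adjusted p = 0.0225) each lost their call under 11 of 21 alternatives, and Slc43a1 under 4. Each of those lists includes the mean without day 3, at -0.60, -0.21 and 0.35. The low genes Slc1a1, Slc6a13, Slc7a9, Slc38a5 and Slc38a8 were also called lower.

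**Figure D4:**
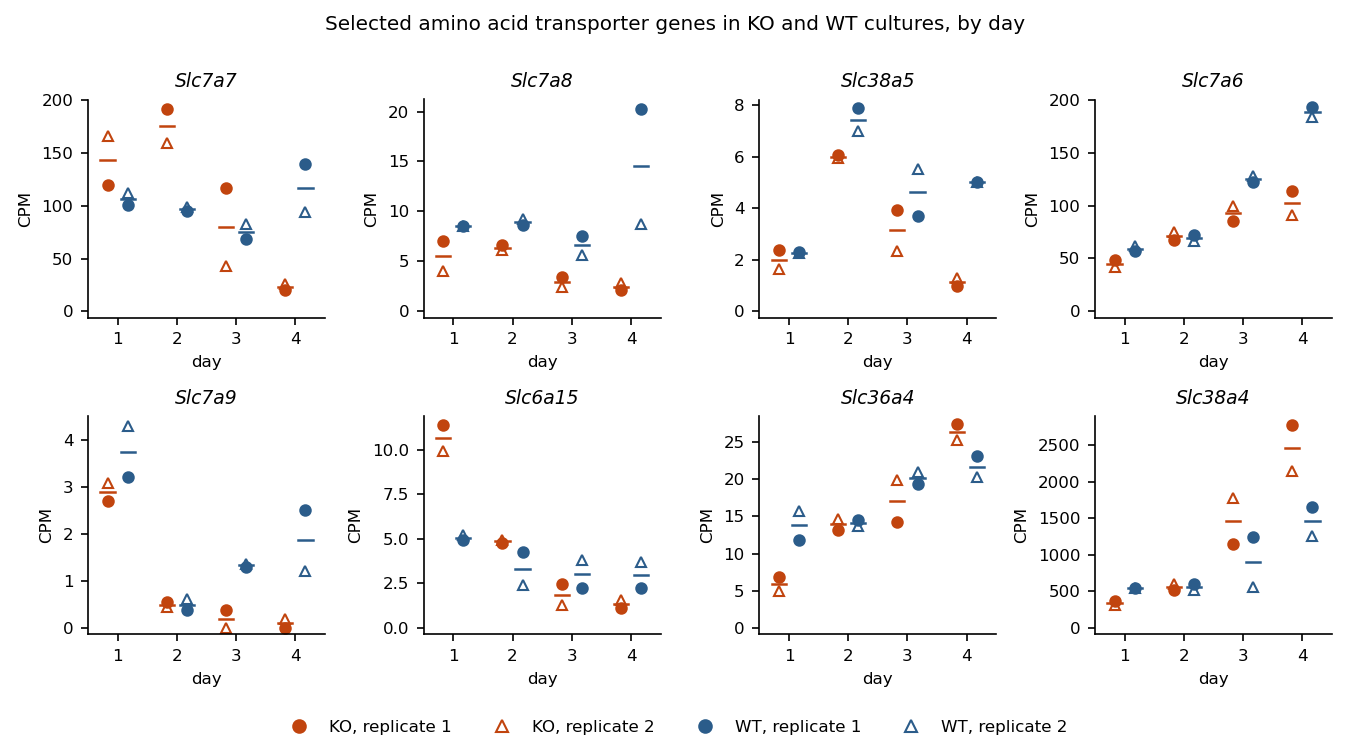
CPM by day for 8 members, with KO points left of WT, replicate 1 filled and replicate 2 open, and a bar at the mean. At day 4 Slc7a7 lies at 19.97 and 26.0 CPM in KO and 140 and 93.9 CPM in WT, while Slc38a4 lies higher in KO.

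The difference between the genotypes' day 1 to day 4 changes was tested in the same fit. It passed for 6 of 50 members (12%), 1 more positive and 5 more negative in KO, where 6.42% of all genes passed, 2.59% positive and 3.83% negative; with DESeq2 size factors these were 2 and 5. Slc7a7 changed by -2.63 in KO, whereas in WT its day 4 level of 140 and 93.9 CPM stood beside 101.2 and 112 CPM at day 1, a difference of -2.77 ± 0.51 (adjusted p = 0.0117). Slc36a4, lower in KO at day 1 and not at day 4, gave 1.503 ± 0.31 (adjusted p = 0.0148). Slc6a15 had 1.13 and 1.55 CPM at day 4 in KO, against 11.4 and 9.95 CPM at day 1, and in WT it had 2.24 and 3.72 CPM at day 4, against 4.93 and 5.22 CPM at day 1, which gave -2.23 ± 0.54 (adjusted p = 0.0303). Slc38a5 and Slc7a8 gave -1.95 ± 0.47 (adjusted p = 0.0288) and -1.94 ± 0.53 (adjusted p = 0.0443). The sixth, Slc7a9, rests on 3 counts in KO at day 4. No call of this kind held under all leave-one-out fits, whose counts of called members ran from 0 to 7. The call was lost without KO day 1 replicate 2 for each of the 6 genes, and calls over all genes also fell in that fit. The values were then 1.31 for Slc36a4, -2.49 for Slc7a7, -2.31 for Slc6a15, -2.15 for Slc38a5, -2.26 for Slc7a8 and -3.61 for Slc7a9.

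The largest genotype differences were found in the diff_XEN cultures. Of 43 members tested there, 7 were higher and 21 lower in KO (65.1%), where 47.0% of all genes were called, 22.1% higher and 24.9% lower. The median log2 fold change of the members was -1.30, against -0.02 over all genes. All 7 called Slc7 genes of the 10 tested were lower, and the family's median was -2.16.

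Among the exchangers, Slc7a11 had 0.48 (C4) and 0.35 (5-3) CPM in KO and 22.5 and 29.6 CPM in WT (-5.99 ± 0.34, adjusted p = 0.00224). Slc7a3 had 2.39 and 4.11 CPM in KO and 236 and 251 CPM in WT (-6.15 ± 0.33, adjusted p = 0.00224), and Slc7a5 had 54.1 and 76.6 CPM in KO and 503 and 485 CPM in WT (-2.89 ± 0.24, adjusted p = 0.00243). Slc3a2, the shared heavy chain, had 142 and 162 CPM in KO and 487 and 403 CPM in WT (-1.52 ± 0.19, adjusted p = 0.00388). In none of these genes did KO and WT overlap. Slc7a9 had 0 and 0.23 CPM in KO and 11.3 and 7.82 CPM in WT (-5.90 ± 0.77, adjusted p = 0.00411). Slc7a7, at 9.43 and 31.9 CPM in KO and 198 and 101.04 CPM in WT, fell by 2.80 ± 0.65 on the log2 scale (adjusted p = 0.0196), and this call was lost without WT library A (-2.27). Slc7a8, called lower at day 4, was not called here, since one WT library had 21.1 and the other 1.31 CPM, against 5.67 and 9.43 CPM in KO.

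Sodium-coupled importers fell with them. Slc1a5 had 31.1 and 35.97 CPM in KO and 156 and 123 CPM in WT (-2.03 ± 0.21, adjusted p = 0.00285). Slc38a2 had 192 and 195 CPM in KO and 528 and 671 CPM in WT (-1.60 ± 0.19, adjusted p = 0.0035). Slc6a15 had 1.09 and 0.46 CPM in KO and 11.6 and 24.3 CPM in WT (-4.61 ± 0.59, adjusted p = 0.00403). Slc6a14, a broad neutral and cationic carrier, had 0 counts in KO and 30 counts over both WT libraries, so that it was at least 6.69-fold lower in KO, taking 3 counts for the whole group as the floor. The lysosomal carriers Slc36a1 (-2.05 ± 0.35, adjusted p = 0.00797) and Slc38a9 (-1.65 ± 0.22, adjusted p = 0.00428) were lower as well.

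Of the 7 members that rose in KO diff_XEN, 4 are described here. Slc38a4 had 1913 and 1397 CPM in KO and 187 and 105 CPM in WT (3.52 ± 0.36, adjusted p = 0.0028), so that it was the most abundant member per length in both KO libraries. Slc6a17 had 9.16 and 11.1 CPM in KO and 0.70 and 0.98 CPM in WT (3.61 ± 0.36, adjusted p = 0.00273). Slc6a6 had 320 and 237 CPM in KO and 170 and 124 CPM in WT (0.94 ± 0.24, adjusted p = 0.0245), a call lost without C4 (0.76), without 5-3 (1.13) or without WT library B (0.76). The glial glutamate transporter Slc1a2 had 12.99 CPM in clone C4 and 0.75 CPM in clone 5-3, and 0.27 and 0.25 CPM in WT; its change of 4.68 ± 1.38 (adjusted p = 0.0388) was 1.60 without C4 and was no longer called, nor was it called without WT library A (4.74) or B (4.67).

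The stress response list followed the importers in these cultures too, at 1383 and 1520 CPM summed in KO and 4678 and 5103 CPM in WT. Of its 24 genes 18 were called lower and 2 higher, where 24.9% of all genes were lower and 22.1% higher. At day 4, 0 of the 24 were called between the genotypes. Visceral endoderm markers summed to 94.5 and 250 CPM in KO and 14139 and 12146 CPM in WT, with Trf alone below 1 CPM in both libraries of each group. Of 10 mesenchyme markers, 7 were called higher and 2 lower in KO, beside the same shares over all genes. The 10 summed to 7431 and 9321 CPM in KO, where Lum was at 0, and to 1658 and 819 CPM in WT. Pluripotency markers summed to 132 and 175 CPM in KO, where Dppa3 was at 0, and to 1031 and 1056 CPM in WT. Of 11 tested, 9 were called lower in KO and 0 higher. Neural markers summed to 506 and 440 CPM in KO, where Neurog2 was at 0, and to 106 and 58.9 CPM in WT. Of 7 tested, 5 were called higher in KO and 0 lower. The part of these lists in the transporter differences was not tested.

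**Figure D5:**
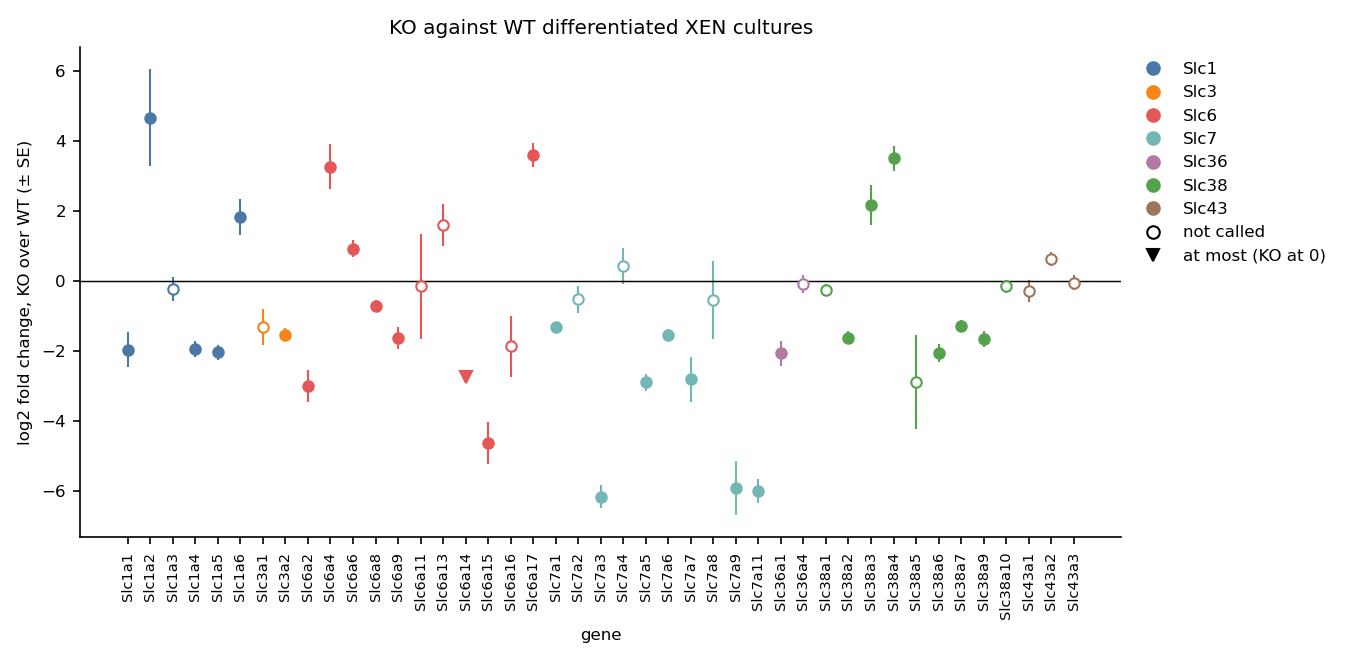
Log2 fold change with SE, KO over WT, for the 43 members tested in diff_XEN, coloured by family; filled points were called, open points were not, and the triangle marks the bound for Slc6a14. All 7 called Slc7 genes lie below 0, with Slc7a3 (-6.15) and Slc7a11 (-5.99) lowest, and Slc38a4 (3.52) lies opposite to the other called Slc38 genes except Slc38a3.

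WT diff_XEN and WT mESC libraries came from different earlier studies, so that stage and study cannot be told apart. In diff_XEN 16 of 47 members tested were higher and 7 lower (48.9%), where 52.5% of all genes were called, 27.2% higher and 25.3% lower. Both tested Slc36 genes were higher in diff_XEN: Slc36a1 had 53.6 and 107 CPM in diff_XEN and 12.5 and 12.6 CPM in mESC (2.68 ± 0.35, adjusted p = 9.66e-04), and Slc36a4 changed by 2.58 ± 0.31 (adjusted p = 7.1e-04). Slc38a6 had 74.7 and 86.1 CPM in diff_XEN and 9.77 and 10.0 CPM in mESC (3.02 ± 0.29, adjusted p = 3.3e-04). Slc38a7 changed by 2.20 ± 0.23 (adjusted p = 4.15e-04), Slc7a6 by 2.06 ± 0.40 (adjusted p = 0.00451) and Slc7a9 by 4.37 ± 0.69 (adjusted p = 0.00203).

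On the lower side, Slc38a4 had 187 and 105 CPM in WT diff_XEN and 552 and 460 CPM in mESC (-1.79 ± 0.33, adjusted p = 0.00389). Slc1a1 changed by -2.21 ± 0.48 (adjusted p = 0.00731), a call lost without WT diff_XEN library B (-2.12). Slc7a3 stood at 236 and 251 CPM in diff_XEN and 327 and 316 CPM in mESC, and Slc7a5 at 503 and 485 CPM in diff_XEN and 302 and 369 CPM in mESC; neither was called (adjusted p = 0.227 and 0.0904). Slc3a2, Slc1a5, Slc7a11 and Slc38a2 were not called either.

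Other genes that handle amino acids were read from lists of mitochondrial, lysosomal and peptide carriers, mTORC1 amino acid sensing and amino acid use. At KO against WT of day 4, the carrier list had 1 gene higher and 6 lower of 19 tested, where 7.04% of all genes were called (1.99% higher, 5.05% lower). Among them Slc16a10, a facilitator of aromatic amino acids, changed by -2.12 ± 0.29 (adjusted p = 3.92e-04) and Sfxn1, the mitochondrial serine carrier, by -0.98 ± 0.12 (adjusted p = 1.78e-04). Both were lower in KO diff_XEN too, at -2.74 ± 0.23 (adjusted p = 0.00243) and -2.54 ± 0.17 (adjusted p = 0.00224), where the list had 2 higher and 6 lower of 15 and 47.0% of all genes were called. Against the same 7.04%, the amino acid use list had 1 higher and 7 lower of 26 at day 4, including Glul, which makes glutamine (-1.31 ± 0.17, adjusted p = 1.99e-04), and Shmt1, which converts serine to glycine (-1.14 ± 0.20, adjusted p = 0.00257). In diff_XEN it had 3 higher and 10 lower of 26, near the 47.0% called over all genes.

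The mTORC1 list had 0 of 36 genes higher and 2 lower at day 4, where 1.99% of all genes were higher and 5.05% lower. Its member Rragd, a Rag GTPase that brings mTORC1 to the lysosome, was higher in KO over the mean of the days (1.10 ± 0.10, adjusted p = 4.28e-06), with 1.28 at day 1, 1.64 at day 2 and 1.02 at day 3, and 0.47 at day 4, where it was not called (adjusted p = 0.191). In diff_XEN 4 of its 36 genes were higher and 10 lower in KO, beside 22.1% and 24.9% over all genes, with Fnip2 (-3.02 ± 0.25, adjusted p = 0.00243), Fnip1 (-2.80 ± 0.28, adjusted p = 0.00278) and Flcn (-1.56 ± 0.18, adjusted p = 0.0035), the folliculin complex that acts on the Rag GTPases, among the lower ones.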

How the data were processed

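The authors deposited raw read counts per gene. STAR 2.5.0c, featureCounts 1.4.5-p1 and mm10 are named in the submitters' processing notes. The labels state a reverse-stranded protocol, while how strand was set in counting, and the annotation release, are not given in the sources used here; hence 12 members whose exons overlap a gene on the other strand, Slc1a1, Slc7a7 and Slc7a4 among them, could include its reads. Of 24 samples in 12 groups, 22 libraries were used, 2 per group. KO mESCs were not analysed here, and 3 columns that no label ties to a sample were not used. The plan asked for 1 endpoint table; the mESC counts were in separate files whose identifiers match line by line and were joined after the files were seen.

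Counts were tested with edgeR 4.0.16 (R 4.3.3; TMM, default expression filter, robust quasi-likelihood fit of group means), in 1 fit of the 16 course libraries, 1 of the 4 diff_XEN libraries and 1 of all 6 endpoint libraries. A gene was called at p below 0.05 after Benjamini-Hochberg adjustment across every gene tested. The SE follows from the F statistic. CPM here are relative to TMM-scaled library size, and RPKM use GENCODE vM21 exon lengths. No level is compared between course and endpoint. Replicates differed by more than sampling noise in every group, so none was merged. Counting intervals and floors cover counting error only. Where groups or days are said not to overlap, this describes 2 libraries a side, in many cases of genes already called. The share of all genes that do not overlap was not worked out. Named members were up to 6 rising and 6 falling called genes of at least 5 CPM per comparison, 6 always given (Slc3a2, Slc7a5, Slc7a11, Slc1a5, Slc7a3, Slc38a2), up to 3 genes per pathway list, and Ago2; other named members were chosen after their values were seen. Members and lists were chosen with earlier results of these data known. Alternatives were DESeq2 1.42.0 (size factors, Wald test), no filter, a replicate block, the 4 compared libraries alone, all endpoint libraries together and leaving out each library. The scripts were tested on simulated data. A gene of the set that enters the counts is not reported here by its own values.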

Additional observations from a re-analysis of the deposited data

Results flagged for a closer look

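A test of the difference itself was passed by 6 of 50 members (12%), beside 6.42% of all genes. For these 6 the change between day 1 and day 4 differed between KO and WT. Its value, KO minus WT on the log2 scale, was 1.503 for Slc36a4, -2.77 for Slc7a7, -2.23 for Slc6a15, -1.95 for Slc38a5, -1.94 for Slc7a8 and -3.73 for Slc7a9. Slc36a4 rose more steeply in KO, where it also began lower (6.84 and 4.93 CPM at day 1 in KO, 11.8 and 15.7 CPM in WT). Slc7a7, Slc7a8 and Slc38a5 ended lower in KO at day 4, whereas Slc6a15 began higher in KO at day 1 (11.4 and 9.95 CPM in KO, 4.93 and 5.22 CPM in WT). That day 1 difference of Slc6a15 was not called. The fitted value of Slc7a9 rests on 3 counts in KO at day 4 and is no bound. As stated above, none of the 6 calls held under all leave-one-out fits, and each was lost without KO day 1 replicate 2. Calls over all genes were fewer in that fit too.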

How the results depend on the processing

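No called value of a named gene changed sign under any alternative run. Member calls at day 2 (1) numbered 2 with the DESeq2 Wald test, 2 without the filter and 3 in the 4 compared libraries alone. At day 3 (2) they numbered 6, 13 and 0 in the same order. At day 4 (6) they numbered 11 without the filter. For the difference of the day 1 to day 4 changes (6) they numbered 10 with the Wald test and 12 without the filter. Calls over all genes moved in the same direction in each of these cases. At day 3 they went from 854 to 1345, 2035 and 35 in the same order. At day 4 they went from 1246 to 2119 without the filter. For the difference they went from 1136 to 2191 with the Wald test and 2707 without the filter. The course run without the filter tested 28953 genes, against 17694 with it. Leaving out 1 library gave 0 to 9 calls at day 1, 0 at day 2, 0 to 12 at day 3, 3 to 7 at day 4, 9 to 18 for the mean, 16 to 21 for WT and 28 to 32 for KO day 4 against day 1, 0 to 7 for the difference of changes, 20 to 23 for diff_XEN and 19 to 23 for diff_XEN against mESC; a lone library is then assumed to vary like the other groups. Calls over all genes also varied between these leave-one-out fits. With the replicate block there were 6 member calls at day 1, 0 at day 2, 2 at day 3 and 6 at day 4. It gave 12 for the mean, 21 for WT, 32 for KO and 5 for the difference. Deviations of same-numbered libraries correlated between -0.18 and 0.39, so the libraries share only a number. For KO day 4 against day 1, a block with crossed pairing called 33 members and one with the labelled pairing 28, in the 4 libraries. No paired analysis was possible for the diff_XEN comparisons because their columns carry no replicate number. Leaving out 1 library turned the sign of values that had not been called. In KO against WT, Slc3a2 ran between -0.15 and 0.31 at day 2 and between -1.01 and 0.39 at day 3 (0.14 without KO replicate 2), and Slc7a5 between -0.39 and 0.18 at day 2 (0.038 without WT replicate 2) and between -1.74 and 0.98 at day 3 (0.049 without KO replicate 2). At day 3 Slc7a11 ran between -5.50 and 0.63, Slc1a5 between -1.01 and 0.78 and Slc7a3 between -2.86 and 1.78. In the mean Slc3a2 ran between -0.25 and 0.10 (0.038 without KO day 3 replicate 2), Slc1a5 between -0.43 and 0.020 and Slc7a3 between -0.59 and 0.57 (0.078 without KO day 3 replicate 2), and Slc7a3 was 0.15 in the mean without day 3. Slc1a5 ran between -0.027 and 0.26 in KO day 4 against day 1, and Slc38a2 between -0.077 and 0.24 in the difference of changes. In diff_XEN against mESC, Slc38a2 ran between -0.24 and 0.12 and Ago2 between -0.60 and 0.41. The mean without day 3 and the crossed pairing were added after seeing the data. The cause of these shifts was not tested. With 2 libraries a group, members of a few counts allow no statement on small changes.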

Other observations

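In the endpoint libraries 15 members exceeded 100 CPM in some group, 13 lay between 10 and 100 CPM, 13 between 1 and 10 CPM and 18 stayed below 1 CPM. Some low carriers of transmitters differed between endpoint groups. The noradrenaline transporter Slc6a2 had 0.34 and 0.29 CPM in KO diff_XEN and 2.27 and 2.82 CPM in WT diff_XEN (-2.99 ± 0.47, adjusted p = 0.00627, edgeR), and 0.05 and 0.14 CPM in WT mESC. The serotonin transporter Slc6a4 ran the other way, with 0.82 and 1.04 CPM in KO diff_XEN and 0.05 and 0.14 CPM in WT diff_XEN (3.28 ± 0.64, adjusted p = 0.0113). The glycine transporter Slc6a5 had 64 counts over the WT mESC libraries and 0 over the WT diff_XEN libraries, at least 20.1-fold lower in diff_XEN, taking 3 counts for the whole group as the floor.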
